A study of Mus musculus with 6 samples.

Results

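The genes described here encode 5 small calcium-signalling proteins of the S100 family, S100a4, S100a6, S100a10, S100a11 and S100a13. They were taken by name from the gene tables of all 6 libraries, and they are 5 of 37735 genes that could be joined across the libraries. All 5 were among the 14236 genes that passed a filter on low counts. They were grouped as S100 genes that were higher in fasted leukaemia cells, so the members were chosen by their CPM levels in the 3 groups, in every comparison used below, and the values are a description with no test. That grouping held only in part. S100a4, S100a6 and S100a10 were at least 1.5-fold higher after 1 and 2 days of fasting, S100a11 was higher by less than 1.5-fold, and S100a13 was close to its control level after 2 days.

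The libraries came from C57BL/6 mice that had received lineage-negative fetal liver cells expressing N-Myc and a GFP reporter, which starts a B-cell acute lymphoblastic leukaemia (B-ALL). When about 60% of peripheral blood cells were GFP-positive, mice were fasted for 1 day, fasted for 2 days or left on normal feeding as the control. Bone marrow cells positive for GFP and for B220, the form of CD45 that marks the B lineage, were then sorted and their total RNA was sequenced. The transplanted cells, the N-Myc transgene and the sort are shared by the 3 groups, and the leukaemias of all groups are of that 1 engineered kind. How many mice stand behind each library, and their age and sex, is not given in the labels. Each group had 2 libraries, which the labels title replicates 1 and 2 and which are called run 1 and run 2 here. By the median over genes they differed by slightly more than read sampling gives, and by far less than libraries of different groups. Whether they came from separate mice is not given. A group was therefore counted as 1 sample (n = 1), and differences between groups could not be checked against biological replicates.

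S100 proteins are small EF-hand proteins, meaning that they bind calcium in helix-loop-helix pockets. They work mostly as dimers: calcium opens a surface on the dimer that grips a target protein such as an annexin, a myosin or an enzyme, and some members also act outside the cell on receptors such as RAGE. In T cells, S100a4, S100a6, S100a10 and S100a11 are known as genes that are low in naive cells and higher in memory cells. S100a8 and S100a9, the abundant pair of neutrophils, are a separate branch and were not part of the group.

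All 5 genes lie on chromosome 3 of mouse build mm10, on the plus strand. S100a13, S100a4 and S100a6 lie near each other, and S100a11 and S100a10 lie in a separate stretch further along. S100a13 spans 90514435 to 90524581, S100a4 spans 90603770 to 90606045 and S100a6 spans 90612894 to 90614414. S100a11 spans 93520488 to 93526287 and S100a10 spans 93555080 to 93564643. S100a4 and S100a6 are 6849 bases apart with S100a5 between them, and S100a11 and S100a10 are 28793 bases apart. Their exons, as the authors' files give them, total 587 bases in S100a4, 719 in S100a6, 1212 in S100a10, 511 in S100a11 and 715 in S100a13. In the GENCODE annotation a second protein-coding gene, Gm42674, overlaps S100a4 on the same strand. It was not among the neighbouring genes joined across the libraries, so the S100a4 counts may hold reads of either gene.

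The 250 bases before the RefSeq start of 3 of the genes are shown because S100a4 and S100a6 had the largest and most similar differences, while S100a11, from the same family and chromosome, did not. They were read from RefSeq promoter windows of build GRCm38.p6, where 4 of the 5 genes had an entry. The windows are chr3:90603520-90603769 for S100a4, chr3:90612644-90612893 for S100a6 and chr3:93520246-93520495 for S100a11, all on the plus strand, 5′ to 3′. Capitals mark matches to 1 of 8 short motifs that were chosen after the letters had been seen.
S100a4: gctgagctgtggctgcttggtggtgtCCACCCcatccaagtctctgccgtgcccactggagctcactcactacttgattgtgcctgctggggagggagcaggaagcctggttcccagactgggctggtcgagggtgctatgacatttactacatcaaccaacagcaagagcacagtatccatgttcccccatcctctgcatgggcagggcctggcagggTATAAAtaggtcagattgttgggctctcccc
S100a6: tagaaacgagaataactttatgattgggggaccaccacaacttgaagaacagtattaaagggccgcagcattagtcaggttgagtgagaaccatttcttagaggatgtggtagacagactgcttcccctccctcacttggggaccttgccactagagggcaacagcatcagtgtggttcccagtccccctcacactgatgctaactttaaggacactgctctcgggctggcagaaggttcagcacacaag
S100a11: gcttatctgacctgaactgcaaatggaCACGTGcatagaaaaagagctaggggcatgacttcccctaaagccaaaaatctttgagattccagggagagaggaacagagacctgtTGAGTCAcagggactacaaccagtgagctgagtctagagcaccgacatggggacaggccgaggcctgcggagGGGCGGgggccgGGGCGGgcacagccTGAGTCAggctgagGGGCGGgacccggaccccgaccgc
The motifs were searched on both strands. S100a4 held the TATA box letters TATAAA at 31 to 26 bases before the start and CCACCC, a letter string bound by Klf factors, at 224 to 219. TATAAA stood in 12.4% of 32817 windows of the same length and CCACCC in 28.1%. The S100a13 window, not shown, also held CCACCC, at 106 to 101 bases before the start, and no other of the 8 motifs. The part of any of these motifs in the S100 levels was not tested. S100a11 held no TATAAA. It held the AP-1 letters TGAGTCA, a match to TGANTCA, at 136 to 130 and again at 38 to 32 bases before the start, and 6.75% of all windows hold that motif. It also held the E-box CACGTG, found in 6.02% of windows, and 3 copies of GGGCGG, the letters bound by Sp1, found in 32.7%. The S100a6 window held none of the 8 motifs, the remaining ones being the forkhead motif TGTTTAC, the NF-kB motif and the glucocorticoid receptor motif, held by 3.16%, 0.357% and 0.00914% of windows. GC made up 57.2% of the S100a4 window, 50% of the S100a6 window and 60% of the S100a11 window, beside a median of 52.4% over all windows.

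Levels are given as CPM, total gene reads of a library scaled by its size and a TMM factor to a common depth. Total gene reads ranged from 19368326 to 45862844 per library. A gene is counted as higher or lower when the mean of both runs and each run alone differed by at least 1.5-fold in the same direction. Folds are log2 of mean CPM after adding 0.1 CPM, and pooled ratios carry a 95% exact interval that covers counting error only. The comparisons with control share the control libraries, so their values for a gene are given side by side and not correlated. Since the cells were measured in bulk, fewer cells of a type and less RNA per cell cannot be told apart.

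S100a6, also called calcyclin, was the member with the largest difference at 2 days. It binds CacyBP/SIP, a protein that links it to the ubiquitin machinery. It stood at 19.3 and 19.0 CPM in the control runs, 116.6 and 116.3 CPM after 1 day and 237.6 and 228.2 CPM after 2 days. The runs of a group were close to each other, and the level was higher at each step in both runs. Between libraries of different groups, 34.7% to 62.0% of genes with enough reads differed by more than 3 SD of read sampling. Clear separation of groups was therefore common. Its log2 fold against control was 2.60 at 1 day, a pooled ratio of 6.10 (5.75 to 6.48) from 8454 reads against 1236. At 2 days the log2 fold was 3.60, a ratio of 12.3 (11.6 to 13.03). Between the fasted groups the level at 2 days was 2.01 times that at 1 day (1.96 to 2.07).

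S100a4, known as metastasin or Fsp1, binds the non-muscle myosin heavy chain and loosens myosin filaments, and it is linked to cell movement. Its control libraries held 41 and 102 reads in run 1 and run 2, or 1.77 and 2.45 CPM. After 1 day it stood at 15.0 and 14.1 CPM, and after 2 days at 22.7 and 20.3 CPM. In both runs the level was higher after 1 day than in control and higher again after 2 days. The log2 fold against control was 2.72 at 1 day (3.01 in run 1, 2.47 in run 2), and the pooled ratio was 6.52 (5.47 to 7.83). At 2 days it was 3.29 (3.61 and 2.99), a ratio of 9.91 (8.33 to 11.9). Both folds rest on 143 control reads. From 1 to 2 days the ratio was 1.52 (1.40 to 1.65), and the log2 fold of the mean was 0.56 (0.60 and 0.52 in the runs), under 1.5-fold in the mean and in run 2, so this step is not counted.

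S100a10, or p11, differs from its relatives in that the protein is fixed in the open state without calcium. It holds annexin A2 in a complex at the inner face of the plasma membrane. Its levels were 116.8 CPM in each control run, 196.1 and 190.5 CPM after 1 day and 237.4 and 242.7 CPM after 2 days. The order of the groups was the same in both runs. The log2 fold was 0.73 at 1 day, a ratio of 1.65 (1.60 to 1.70), and 1.04 at 2 days, a ratio of 2.05 (1.99 to 2.11). The step from 1 to 2 days was 1.24-fold (1.21 to 1.27) and under the threshold. Its 2-day fold rests on 7567 control reads, the deepest coverage of the 5 genes in control, and was smaller than those of S100a4 and S100a6.

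S100a11, or calgizzarin, binds annexins A1 and A6 and takes part in membrane repair. It stood at 20.0 and 19.3 CPM in control, 28.2 and 29.1 CPM after 1 day, and 27.2 and 27.4 CPM after 2 days. Both fasted groups were above control in each run, and they lay beside each other. The log2 fold was 0.54 at 1 day, a ratio of 1.47 (1.37 to 1.58), and 0.47 at 2 days, 1.39 (1.29 to 1.503). Neither reached 1.5-fold in the mean and each run, and the ratio of 2 days to 1 day was 0.949 (0.888 to 1.01). Only 62.6% to 68.1% of its reads mapped to a single place, beside about 100% for S100a4, S100a6 and S100a10, and an S100a11-ps pseudogene on chromosome 12 (73961142 to 73961447) was listed with 0 reads. On unique reads alone its log2 folds were 0.47 and 0.47, while exon-exon reads gave 0.05 and −0.13. The exon-exon ratios were 1.07 (0.838 to 1.36) at 1 day, from 152 reads against 127, and 0.925 (0.705 to 1.21) at 2 days. Nearly all of these exon-exon reads mapped to more than 1 place, with 0 or 1 unique read in each library, so they do not measure S100a11 apart from similar sequence. Its level is uncertain to that extent.

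S100a13 helps to release FGF1 and interleukin-1 alpha, proteins that leave the cell without a signal peptide. It stood at 10.8 and 11.04 CPM in control, 12.7 and 12.9 CPM after 1 day and 10.4 and 10.3 CPM after 2 days. The 1-day runs were above control and the 2-day runs were just below it. The log2 folds were 0.22 at 1 day, a ratio of 1.17 (1.06 to 1.29), and −0.08 at 2 days, 0.945 (0.846 to 1.06). Neither was counted as higher or lower, and the 2-day interval includes a ratio of 1. The 2-day level was 0.810 of that at 1 day (0.729 to 0.899).

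**Figure D1:**
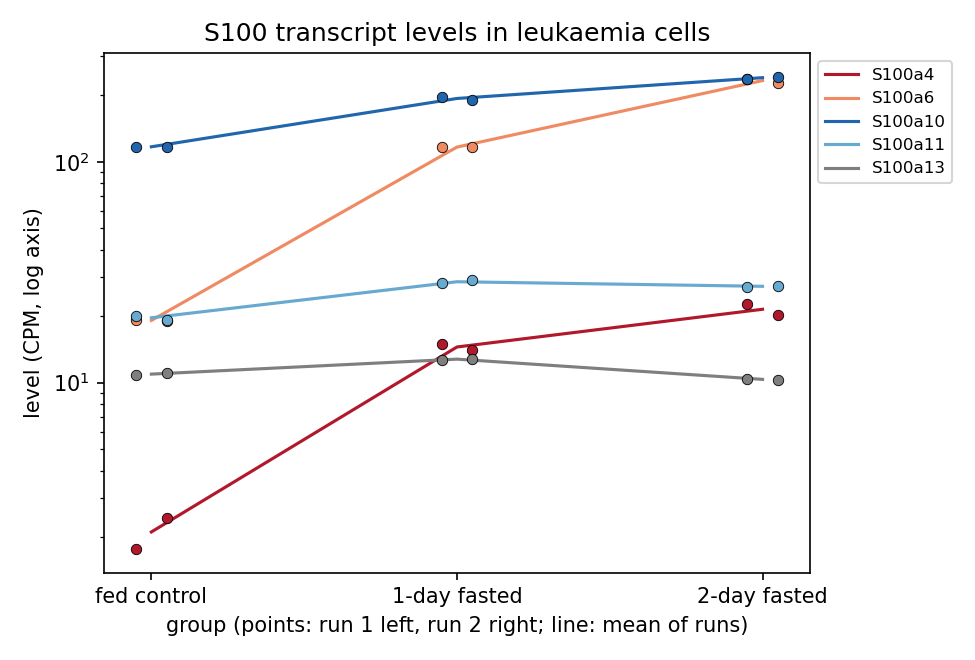
Levels of the 5 S100 genes in CPM on a log axis, with points for run 1 and run 2 of each group and a line through their means. S100a6 and S100a4 are higher in both fasted groups by the most, S100a10 by less, and S100a11 and S100a13 change little.

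Of the 5 genes, 3 were counted as higher at 1 day (S100a4, S100a6 and S100a10) and 0 as lower, beside 4.34% of all genes counted as higher and 2.75% as lower. At 2 days 3 were counted as higher, beside 9.27% of all genes, and 0 as lower, beside 10.2%. From 1 to 2 days S100a6 alone was counted as higher, beside 5.35% of all genes, and 0 as lower, beside 8.75%. At a 2-fold threshold S100a4 and S100a6 passed at 1 day, 2 members beside 1.52% of all genes higher and 0.752% lower. S100a10 joined them at 2 days, 3 members beside 4.36% higher and 5.8% lower, and 0 passed from 1 to 2 days, beside 1.9% higher and 4.83% lower. These shares describe how common such differences were, and since the same values chose the members they support nothing more. Just outside the 1.5-fold threshold was S100a11 at 1 day, with log2 folds of 0.49 in run 1 and 0.59 in run 2. Just inside it was S100a10 at 1 day, with log2 folds of 0.75 and 0.70 in run 1 and run 2. By log2 fold among the 14236 genes, S100a4 ranked 11 and S100a6 ranked 17 at 1 day, and they ranked 19 and 12 at 2 days. S100a10 ranked 652 and 774, S100a11 ranked 1046 and 2262, and S100a13 ranked 2954 and 8273.

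**Figure D2:**
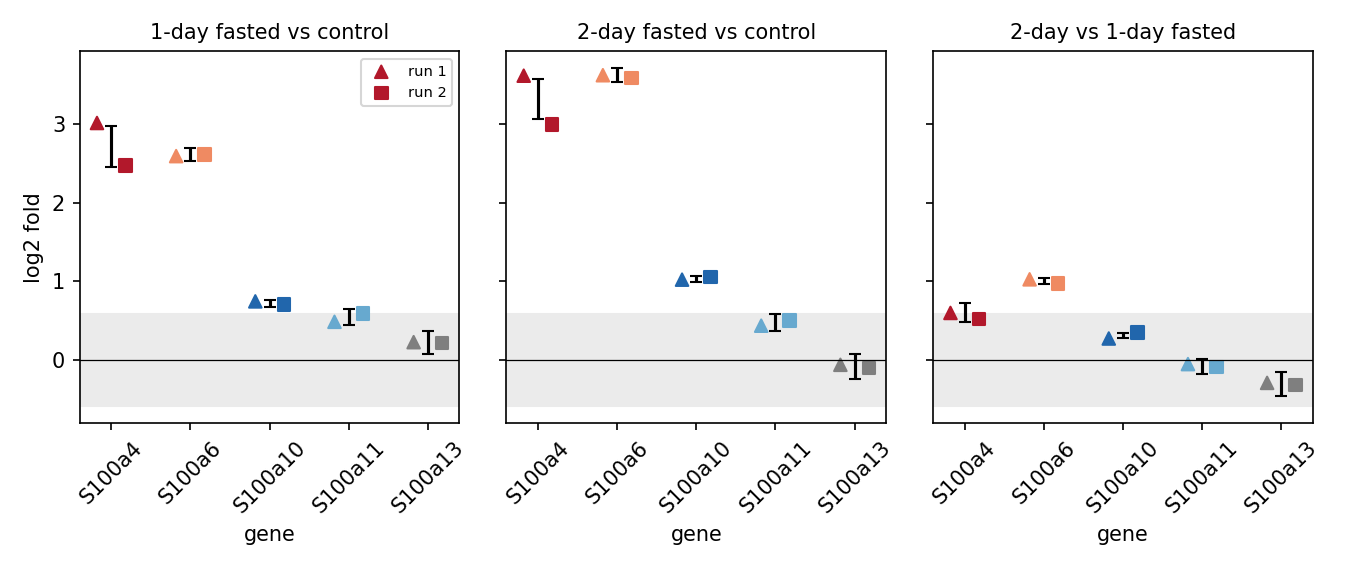
Log2 folds of the 5 S100 genes in each comparison, with triangles for run 1, squares for run 2 and bars for the 95% counting interval of the pooled ratio; the grey band is less than 1.5-fold. S100a4 and S100a6 lie far above the band in both comparisons with control, and S100a13 lies inside it in all 3.

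Compared per kilobase of exon, using the authors' RPKM values, the order of the genes differed between groups. In control cells S100a10 was highest at 89.7 ± 0.908 RPKM (SD between 2 runs of 1 sample) and S100a4 lowest at 3.34 ± 0.734 RPKM. S100a11 at 35.8 ± 1.35 RPKM, S100a6 at 24.8 ± 0.528 RPKM and S100a13 at 14.2 ± 0.0528 RPKM lay between them, with no overlap of neighbours. After 1 day S100a6 at 151.9 ± 0.297 RPKM and S100a10 at 149.5 ± 3.12 RPKM overlapped in their runs and cannot be ordered. After 2 days S100a6 led at 309.1 ± 4.83 RPKM, above S100a10 at 189.1 ± 5.43 RPKM. The sum of the 5 was 167.9 RPKM in control, 393.9 after 1 day and 597.9 after 2 days. S100a6 made up 14.7% of that sum in control, 38.6% after 1 day and 51.7% after 2 days, while the share of S100a10 was 53.4%, 38.0% and 31.6%.

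**Figure D3:**
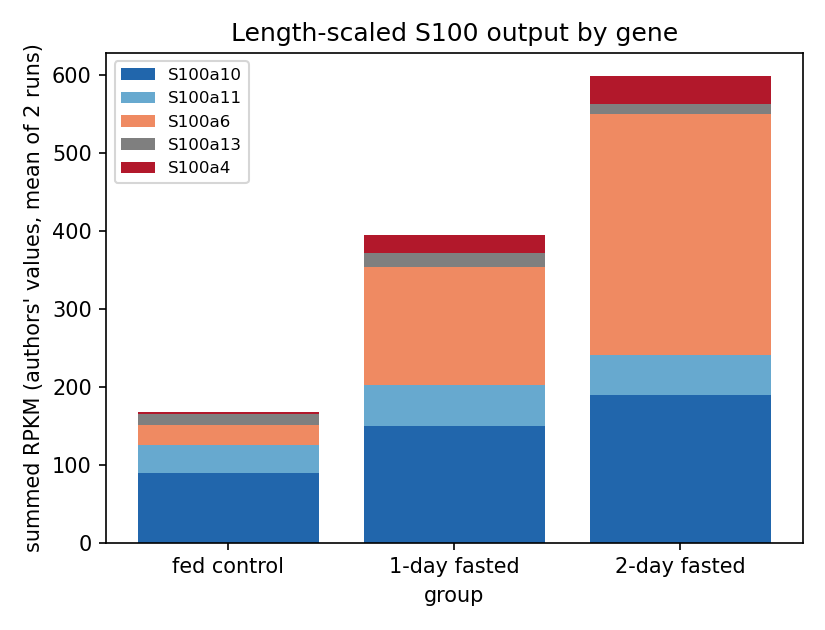
Mean RPKM of the 2 runs, stacked by S100 gene in each group, with each bar the sum of 5 genes. S100a10 makes up the largest part in control and S100a6 after 2 days.

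Where reads fall within a gene bears on whether spliced transcripts moved with the total. Exon-exon reads gave log2 folds of 2.35 and 2.99 for S100a4, 2.49 and 3.40 for S100a6, and 0.53 and 0.94 for S100a10, at 1 and 2 days, in each case smaller than on total reads. On these reads S100a10 at 1 day was under the 1.5-fold threshold, at a ratio of 1.44. For S100a13 they gave 0.25 and −0.31. Exon-exon and intron reads were scaled with the factors of total gene reads. Whether exon-exon reads shifted over all genes was not tested, so a shared shift in these folds cannot be told apart. Intron reads of S100a6 were few, 5 in control, 23 after 1 day and 34 after 2 days. Intron reads of S100a10 stood at 99 in control, 193 after 1 day and 101 after 2 days, so its ratio was 1.74 (1.36 to 2.24) at 1 day and 1.17 (0.881 to 1.57) at 2 days, while its total reads were higher at both. The sources do not say if strand was used in counting, and antisense reads may be included.

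Beside the 5 members, the S100 list had 13 genes in the files, of which S100pbp encodes an S100-binding protein and not an S100 protein. The filter kept 4 (S100a1, S100a8, S100a9 and S100pbp), and 0 were counted as higher at either time. Over all genes 4.34% were higher at 1 day and 9.27% at 2 days, so 0 of 4 is near those shares. S100a8, a neutrophil calcium and zinc binder, was lower at 1 day, at 112.9 CPM against 180.0 (log2 fold −0.67), and S100a9, its partner, at 184.8 CPM against 287.2 (−0.64). Neither was counted at 2 days. Over all genes 2.75% were lower at 1 day and 10.2% at 2 days. S100a1 stood at 1.60 CPM in control, 2.12 after 1 day and 2.21 after 2 days, and S100pbp, whose protein binds S100P in human cells, at 41.7, 42.4 and 36.3 CPM. S100a5, which lies between S100a4 and S100a6, had 3 reads in control, 10 after 1 day and 18 after 2 days, or 0.0551, 0.138 and 0.331 CPM. These reads are too few to pass the filter. S100a3 had 7 reads in all 6 libraries, S100a16 had 7, S100a14 had 4 and S100a7a had 2. S100a2, S100b and S100g had 0 reads. The fused S100-type genes of skin had 1 read in all, of Tchh.

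On chromosome 3, 25 non-S100 genes begin within 250 kb of an S100 gene, and 8 passed the filter. All of the 8 but Rplp0-ps1 lie between 90265185 and 90509498, before S100a13. Rplp0-ps1, on the side of S100a11 and S100a10, had 18 reads in control, 16 after 1 day and 17 after 2 days. The 8 genes therefore say little about the surroundings of S100a11 and S100a10. Slc27a3, a fatty acid activating enzyme, was counted as higher at both times, at 5.66 CPM in control, 12.0 after 1 day and 10.2 after 2 days. The other 7 were not counted, and Chtop, an mRNA export factor, stood at 237, 224 and 223 CPM. Over all genes 4.34% were counted as higher and 2.75% as lower at 1 day, and 9.27% and 10.2% at 2 days. The median log2 fold of all 8, Slc27a3 included, was −0.05 at 1 day and 0.07 at 2 days, beside 0.01 and −0.00 over all genes.

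Annexins are membrane-binding proteins and the best known partners of S100a10, which holds annexin A2 without needing calcium, and of S100a11, which binds its annexins when calcium is present. Of 9 that passed the filter, Anxa2, the S100a10 partner, was counted as higher at both times and 0 were lower, beside 4.34% of all genes higher at 1 day and 9.27% at 2 days. It stood at 13.3 CPM in control, 36.1 after 1 day and 33.0 after 2 days, log2 folds of 1.44 and 1.31. Anxa6, a membrane organiser that S100a11 binds, was at 73.7, 102.0 and 108.0 CPM, and its log2 folds of 0.47 and 0.55 were not counted. Anxa1, a target of S100a11 in human cells, was at 40.3, 39.9 and 42.3 CPM. The median log2 fold of the annexins was 0.13 at 1 day and 0.09 at 2 days.

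Of 22 measured partners that S100 proteins bind inside the cell, 2 were counted as higher and 0 as lower at 1 day (4.34% and 2.75% over all genes), and 2 as higher and 3 as lower at 2 days, near the 9.27% and 10.2% over all genes. Ahnak, a giant scaffold held by the S100a10 and annexin A2 complex, stood at 73.5 CPM in control, 264.3 after 1 day and 472.1 after 2 days, log2 folds of 1.85 and 2.68. At 2 days Ppfibp1, a liprin that binds S100a4, was at 1.39 CPM against 7.57 (−2.36), Rtkn, a scaffold protein that binds S100a4, at 0.0925 against 0.833 (−2.28), and Myh10, non-muscle myosin IIB, at 1.80 against 3.59 (−0.95). Myh9, the myosin IIA heavy chain that S100a4 binds, was at 710.1, 578.6 and 502.4 CPM and was not counted, nor was Cacybp, the S100a6 partner, at 262.3, 250.5 and 280.5 CPM. The median log2 fold of the list was −0.06 at 1 day and −0.03 at 2 days.

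Of 12 measured receptors and plasminogen genes, 2 were counted as higher at both times and 0 as lower, beside 4.34% higher at 1 day and 9.27% at 2 days over all genes. Plaur, the urokinase receptor, stood at 4.33 CPM in control, 11.5 after 1 day and 22.0 after 2 days, log2 folds of 1.39 and 2.32. Il10ra, the interleukin-10 receptor chain, was at 27.4, 43.5 and 59.7 CPM. Ager, the gene of RAGE, was at 1.92, 2.64 and 1.75 CPM, and Tlr4 at 8.60, 9.33 and 13.4 CPM. Neither was counted.

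Among 40 other EF-hand genes, 3 were counted as higher and 1 as lower at 1 day, beside 4.34% and 2.75% of all genes, with a median log2 fold of 0.07. At 2 days 6 were higher and 4 lower, beside 9.27% and 10.2% of all genes, with a median of −0.01. Sparc, a secreted matrix protein, stood at 0.420, 1.74 and 4.07 CPM in control, 1-day and 2-day cells, and Rcn3, a secretory pathway protein, at 0.329, 0.902 and 1.40 CPM. Myl12b, a myosin light chain, was at 6.42, 12.8 and 16.3 CPM and was higher at both times. Capn1, the calcium-dependent protease calpain 1, was higher at 2 days at 66.3 CPM against 24.9, while Capn2, calpain 2, was lower at 3.81 against 10.8. Calm2, a calmodulin gene, was not counted, at 359.0, 336.9 and 268.2 CPM.

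A list of 36 cytoskeleton and adhesion genes often expressed with these S100 genes in lymphocytes held 11 genes higher and 0 lower at 1 day, beside 4.34% and 2.75% of all genes, and 12 higher and 1 lower at 2 days, beside 9.27% and 10.2%. Its median log2 fold was 0.25 at 1 day and 0.12 at 2 days, beside 0.01 and −0.00 over all genes. The list was chosen with earlier results of these data known. Ahnak and Anxa2, counted as higher at both times, also stand on lists above, so these counts are not separate from those. Itgb7, an integrin chain for gut homing, stood at 26.3 CPM in control, 65.6 after 1 day and 145.0 after 2 days, log2 folds of 1.32 and 2.46. Lgals1 and Lgals3, galectins that bind galactose sugars, had log2 folds of 0.87 and 1.51 and of 0.75 and 1.66. Capg, an actin-capping protein, had 0.84 and 1.33, and Lsp1, a lymphocyte actin-binding protein, had 0.75 and 1.20. Lmna, the lamin A gene, was higher at 1 day (5.54 to 47.3 CPM, log2 fold 3.07) than at 2 days (22.1 CPM, 1.98). Pfn1, a profilin, stood at 631.6, 642.1 and 544.4 CPM, and Coro1a, a coronin, at 943.9, 1078 and 1024 CPM, and neither was counted.

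Of 28 measured transcription factors with a known part in S100 gene control, 10 were counted as higher and 1 as lower at 1 day, and 4 as higher and 6 as lower at 2 days. Over all genes 4.34% were higher and 2.75% lower at 1 day, and 9.27% and 10.2% at 2 days. From 1 to 2 days 1 was higher and 9 were lower, beside 5.35% and 8.75% of all genes. Fosl2, an AP-1 subunit, stood at 8.40 CPM in control, 14.9 after 1 day and 61.7 after 2 days (log2 folds 0.82 and 2.86), and Junb at 70.3, 112.5 and 156.8 CPM (0.68 and 1.16). Fos, Fosb and Klf4 were higher at 1 day and lower at 2 days, as Fos at 89.6, 171.9 and 42.6 CPM and Fosb at 155.0, 343.7 and 51.8 CPM. Klf4, a zinc-finger factor, was at 6.07, 16.3 and 2.97 CPM. Lef1 and Tcf7, which act in Wnt signalling, were at 101.8, 66.97 and 3.32 CPM and at 6.51, 2.79 and 0.993 CPM. Rela, an NF-kB subunit, was at 75.6, 84.5 and 83.3 CPM and was not counted.

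**Figure D4:**
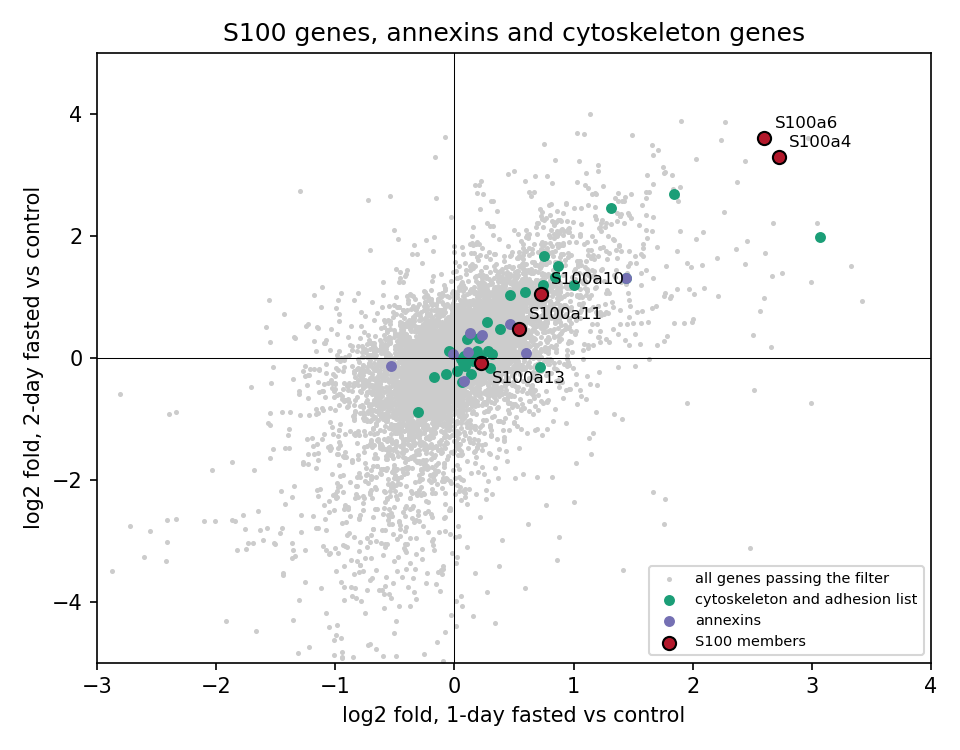
Log2 fold at 1 day (x) against log2 fold at 2 days (y) for all genes that passed the filter, with the 5 S100 genes, annexins and cytoskeleton and adhesion genes marked. Both axes use the same control, and 47 of the 14236 genes lie outside the plotted range. S100a4 and S100a6 sit at 2.72 and 2.60 on x, while S100a13 sits near 0 on both axes.

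By the smallest distance over the 4 log2 folds (1 and 2 days, in each run) among 9006 named genes with a mean of at least 5 CPM, S100a4 was nearest to S100a6, at 0.735. Zbtb32, a transcriptional repressor in lymphocytes, and Zfp783 followed at 0.898, then Cpn1 at 1.14 and Lifr, the leukaemia inhibitory factor receptor, at 1.504. S100a6 was nearest to Zfp783 at 0.549 and Cpn1 at 0.618, then S100a4, Tex21 at 0.962 and Zbtb32 at 1.06. S100a10 lay 4.49 from S100a6 and was nearest to Khk, ketohexokinase, at 0.0559, then Samd9l, Crip1, Napsa and Gucd1, up to 0.116. S100a11 was nearest to Abca7 at 0.0547, then Cnn3, Tmem63b, Ankrd13b and Anxa6, up to 0.154. S100a13 was nearest to Zfp653 at 0.0343, then Bcl2l11, Cd37, Brd2 and Dcaf15, up to 0.0606. S100a11 lay 0.851 from S100a10 and 0.902 from S100a13.

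The sorted cells carried B-lineage transcripts in every group. The marker counts that follow stand beside 4.34% of all genes higher and 2.75% lower at 1 day, and 9.27% higher and 10.2% lower at 2 days. Mycn, the driving gene, stood at 2118 to 2261 CPM. Of 13 B-lineage markers, 0 were counted at 1 day, and at 2 days 1 was higher and 4 lower, of which Vpreb1, a surrogate light chain of early B cells, was at 57.2, 48.4 and 1.26 CPM. Of 16 markers of mature, memory and plasma B cells, 7 were higher and 1 lower at 1 day, and 8 higher and 2 lower at 2 days, and their summed level was 415 to 418 CPM in the control runs, 536 to 537 in the 1-day runs and 595 to 625 in the 2-day runs. The part of these stage markers in the S100 levels was not tested.

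Markers of other marrow cells, which can also express S100 genes, moved as follows, and their part in the S100 levels was not tested. The summed CPM of 24 neutrophil markers was 1183 to 1225 in control, 801 to 846 after the 1-day fast and 1149 to 1157 after the 2-day fast. Of these markers 0 were higher and 5 lower at 1 day, and 4 were higher and 1 lower at 2 days. From 1 to 2 days 6 were higher and 0 lower, beside 5.35% and 8.75% of all genes. The neutrophil list includes S100a8 and S100a9, at 180.0 and 287.2 CPM in control, so its sum is in part S100 transcript. The monocyte, macrophage and dendritic list, 19 of 24 genes passing, summed to 157 to 163 CPM, 152 to 156 CPM and 235 to 242 CPM, with 2 higher and 0 lower at 1 day and 7 higher and 1 lower at 2 days. Its Csf1r was at 2.06, 2.77 and 5.14 CPM, and Lyz1 had 2, 1 and 5 reads. The erythroid and platelet list, 14 of 17 passing, summed to 446 to 462 CPM, 574 to 587 CPM and 996 to 1007 CPM, with 0 higher and 0 lower at 1 day and 5 higher and 1 lower at 2 days. T and NK markers, 22 of 26 passing, summed to 92.5 to 96.1 CPM, 112.5 to 115.3 CPM and 78.2 to 79.2 CPM. Of them 10 were higher and 2 lower at 1 day, and 3 were higher and 11 lower at 2 days, and Cd3e was at 0.386, 0.439 and 0.159 CPM. Stromal markers, 4 of 15 passing, summed to 54.0 to 54.9 CPM, 55.3 to 57.0 CPM and 45.5 to 47.6 CPM, with Sparc higher at both times. The 5 S100 genes summed to 168.6 to 168.7 CPM, 362.8 to 368.5 CPM and 528.8 to 535.4 CPM.

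**Figure D5:**
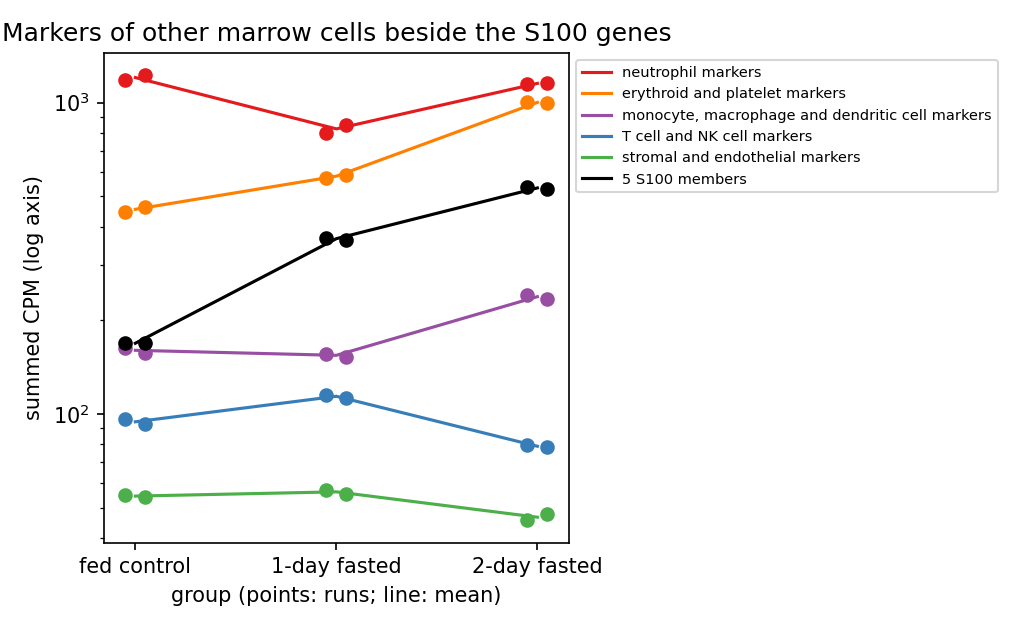
Summed CPM of marker lists of other marrow cells and of the 5 S100 genes, on a log axis, with points for the runs and lines through their means. The neutrophil list includes S100a8 and S100a9. The S100 sum is higher in both fasted groups, while the neutrophil sum is lower at 1 day and near its control level at 2 days, and the erythroid sum is higher at 2 days.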

How the data were processed

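RNA-seq was made from sorted GFP+B220+ B-ALL cells of fed control, 1-day fasted and 2-day fasted mice, 2 libraries a group. Reads were 51-base single-end, per the labels' protocols, and were aligned with TopHat2 to mm10, as the submitters' processing notes record. For the counting program and the annotation, a name is not given in the sources used here. The deposited files give read counts per gene in several classes (total and unique; gene, exon, exon-exon and intron). The authors' RPKM values equal total gene reads per kilobase of exon, scaled to library size.

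Run 1 lists 38355 genes and run 2 lists 38924, so genes were joined by position (37439) or name (296). Joined genes held 95.4% to 97.3% of gene reads in run 2 and over 99.9% in run 1. Mitochondrial genes were left out. The median squared difference between runs of a group was 1.27 to 1.31 times the median that read sampling gives on total reads. It was 1.10 times on unique reads, against 7.62 or more between groups. Runs of a group thus differed by slightly more than read sampling. On total reads 3.92% to 4.19% of genes lay beyond 3 SD of it. Each group was therefore counted as 1 sample with 2 runs, and no test was run.

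Counts were scaled with TMM factors from edgeR 4.0.16 (R 4.3.3), and low genes were removed with filterByExpr (minimum count 10). The 2 runs' CPM were averaged to give a group's level, and log2 folds add 0.1 CPM. Ratios of pooled reads carry exact 95% binomial intervals that cover counting error only, and reads without molecular identifiers are not independent molecules. Size factors from DESeq2 1.42.0 served as an alternative, among others given in the closing section. All 5 members are described. From each gene list, genes counted in either comparison with control are named, at most 8, with up to 2 others. Genes most like a member are the 5 nearest over 4 log2 folds. The members and lists were chosen with earlier results of these data known. S100a2 was added to its list after seeing the files.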

Additional observations from a re-analysis of the deposited data

How the results depend on the processing

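No paired analysis was possible because the 2 libraries of a group lay as close as read sampling allows at most genes, stand for 1 sample here and gave no test. Whether they came from separate mice is not given. No S100 log2 fold that was counted changed sign, and that of S100a11 from 1 to 2 days, not counted, ranged from −0.09 to 0.02. The filter does not enter a gene's fold. Over 11 alternatives (scaling, read class, unit, pseudocount, a run left out), log2 folds at 1 and 2 days ranged from 2.32 to 2.97 and 2.85 to 3.53 for S100a4, 2.55 to 2.61 and 3.54 to 3.65 for S100a6, 0.70 to 0.74 and 1.03 to 1.09 for S100a10, 0.47 to 0.57 and 0.44 to 0.53 for S100a11, and 0.21 to 0.25 and −0.09 to −0.02 for S100a13. Exon-exon reads, an alternative added after seeing the data and scaled with the factors of total reads, put S100a10 at 1 day at 0.53, under 1.5-fold. The other values stand above. From 1 to 2 days, 0 members were counted at a 2-fold threshold and 2 with library size alone, where S100a4 also passed.

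At a 2-fold threshold all genes counted numbered 323 at 1 day, 1447 at 2 days and 957 from 1 to 2 days, against 1009, 2769 and 2007, and gene-list members 11 at 1 day and 13 from 1 to 2 days, against 28 and 24. With 1 CPM added, 471 and 1202 genes were counted at 1 day and from 1 to 2 days. With 1 run left out, fewer runs must pass. Members counted were then 3 to 3 at 1 and 2 days and 1 to 2 from 1 to 2 days (2 without run 2 of the 2-day group). All genes numbered 1445 to 1734 at 1 day, 3373 to 3555 at 2 days and 2565 to 2825 between them, and list members 30 to 31, 37 to 42 and 26 to 31. Where a setting other than a left-out run moved a count, the cause was not tested beyond the stricter threshold itself. The S100a4 folds rest on 143 control reads.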
